A study of Zea mays with 4 samples.

Results

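The regions described are the sites on maize (Zea mays) chromosome 7 that CUT&Tag with an antibody against ZmICE1a marked in both deposited peak lists of endosperm. A site was kept where peaks of both lists overlapped by 1 bp or more on chromosome 7, and the overlapping peaks were merged. This gave 1196 regions of the 11310 on chromosomes 1 to 10 (10.6%), on a chromosome that makes up 8.66% of the length of those 10. The members were thus selected on the authors' peak calls and their position, and the chromosome was picked with its density and strength in these lists in view. Both are given as a description, without a test. Intervals are exact Poisson, exact binomial or, for a median, exact order-statistic intervals at 95%. They cover counting error only and treat regions as independent, which neighbouring regions may not be.

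ZmICE1a is a basic helix-loop-helix transcription factor, a family whose members bind DNA as dimers at short E-box sequences. Its namesake in Arabidopsis, ICE1, is known for switching on cold-response genes and for its part in stomatal development. The cereal endosperm is the starch- and protein-storing tissue of the grain. Maize chromosomes carry most of their genes towards the ends, while the interior around the centromere is rich in retrotransposons.

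The libraries came from ZmICE1a mutant endosperm (2 libraries) and wild-type endosperm (2 libraries), each genotype with biological replicates 1 and 2. The labels name no allele of the mutant, no inbred background and no age of the grain. List 1 draws on the mutant and the wild-type library of replicate 1, and list 2 on those of replicate 2. The labels do not say which library served as treatment and which as control, so no value can be assigned to either genotype. A peak therefore marks more fragments in one library than in another, and endosperm markers cannot be read from peaks. A region had to stand in both lists, so they give 1 set of regions, and their values are given side by side.

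Strength is given in 3 ways. The fold is the authors' enrichment at the peak summit over the local control background, a linear ratio with a pseudocount of 1, and the lower fold is the smaller of both lists' values for a region. The treatment fragments at the summit and the control background there, in fragments of the control library, were worked out from the listed fold and p-value. The background is the caller's local value rather than a count at the site, and it need not be a whole number. The treatment library was 1.54 times as deep as its control in list 1 and 0.986 times as deep in list 2. Total depth is unknown. All coordinates are those of the B73 version 4 assembly.

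Chromosome 7 had 1515 peaks in list 1 and 1807 in list 2. Of the list 1 peaks, 1227 overlapped a list 2 peak (81.0%, interval 78.9 to 82.9), and of the list 2 peaks 1221 overlapped a list 1 peak (67.6%, 65.4 to 69.7). Over the 8 chromosomes set beside it (1, 2, 4, 5, 6, 8, 9 and 10), these shares ran from 77.3% to 80.9% and from 62.1% to 67.5%. The 288 unpaired list 1 peaks of chromosome 7 had 28 treatment fragments at the median summit, against 60 for paired ones, and the 586 unpaired list 2 peaks had 21, against 50. Nearly all shared regions joined 1 peak of each list (1143 of 1196, 95.6%). Their 2 summits lay a median of 44 bp apart, and 77.1% (74.6 to 79.4) lay within 100 bp. On the 8 other chromosomes together, 80.7% lay within 100 bp.

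Shared regions were denser on chromosome 7 than on any of the 8 chromosomes compared. It held 6.56 regions per Mb (6.20 to 6.95) over 182.2 Mb. The next were chromosome 1 with 5.82 (5.56 to 6.10), chromosome 5 with 5.81 (5.50 to 6.13) and chromosome 2 with 5.77 (5.47 to 6.08). Chromosomes 8, 9, 6 and 10 followed with 5.34, 5.13, 4.65 and 4.41, and chromosome 4 had the fewest, 4.05 per Mb (3.805 to 4.311). Chromosome 3, not among the 8, had 5.79. These intervals take no account of the uneven spread of regions along a chromosome, and the chromosome was chosen for its density, so the order is a description. The regions covered 0.566% of chromosome 7, against 0.314% on chromosome 4 to 0.492% on chromosome 2. Chromosome 7 also came first in each list taken alone, with 8.32 list 1 peaks per Mb on chromosome 7 and at most 7.41 on the others, and 9.92 list 2 peaks per Mb against at most 8.83. Counts were not adjusted for gene content or for how much of the sequence is mappable, and the part of either in the density was not tested.

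**Figure D1:**
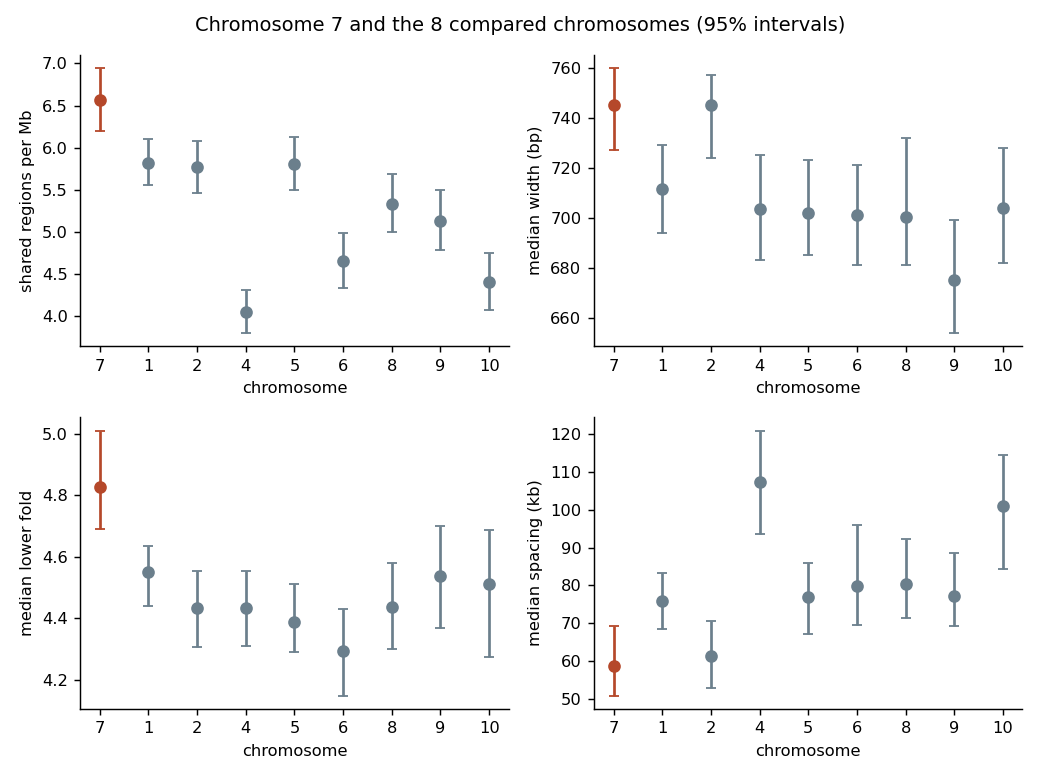
Density of shared regions, median width, median lower fold and median distance between neighbouring summits on chromosome 7 (first point of each panel) and on the 8 compared chromosomes, with 95% intervals for counting error; the vertical axes do not start at 0. Chromosome 7 had 6.56 regions per Mb, a median width of 745 bp, a median lower fold of 4.83 and a median spacing of 58.7 kb.

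The regions were spread unevenly along the chromosome, and most lay beyond its midpoint. That part held 920 of the 1196 (76.9%), a share which on the other chromosomes ran from 49.3% on chromosome 2 to 79.7% on chromosome 6. In 10 Mb bins counted from position 1, the first bin (0 to 10 Mb) held 67 regions. The bins from 10 to 60 Mb held 36, 52, 26, 34 and 19, so that the first 60 Mb had 3.90 regions per Mb. The next 2 bins were nearly empty, with 4 regions from 60 to 70 Mb and 7 from 70 to 80 Mb.

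Numbers were higher again beyond 80 Mb. The bins from 80 to 120 Mb held 29, 22, 69 and 62 regions. From 120 Mb to the end the chromosome carried 769 regions, 12.4 per Mb, in bins of 111, 149, 107, 79, 177 and 126 regions and a last partial bin of 2.19 Mb with 20. The densest bin, from 160 to 170 Mb, had 17.7 regions per Mb (15.2 to 20.5), and the emptiest, from 60 to 70 Mb, had 0.40 (0.109 to 1.02), a ratio of 44.3. No full bin of the 8 other chromosomes held as many as 177, and the highest count among their 165 full bins was 173, reached on chromosomes 2 and 6. More than 100 regions were found in 5 of the 18 full bins of chromosome 7 and in 19 of those 165.

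**Figure D2:**
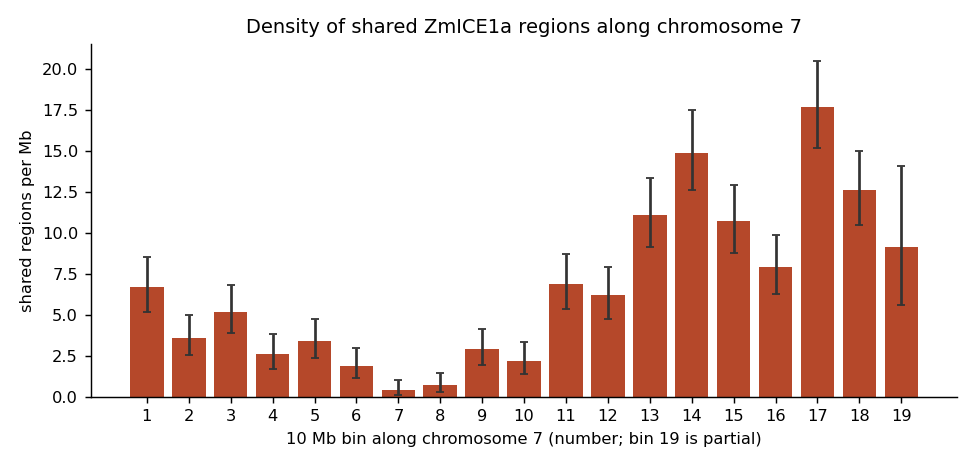
Shared regions per Mb in each 10 Mb bin of chromosome 7, numbered from position 1, with 95% Poisson intervals; bin 19 is the partial bin at the end. Bins 7 and 8 (60 to 80 Mb) held 4 and 7 regions, and bin 17 (160 to 170 Mb) held 177.

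On the scale of 1 Mb, 20 of the 182 full windows of chromosome 7 had no shared region (10.99%), within the range of 4.93% to 14.5% on the other chromosomes. In contrast, 23 windows held 15 or more, against 3 on chromosome 9 to 22 on chromosome 2. The densest window, 133379559 to 134379558, contained 31 regions with a median width of 849 bp and a median distance of 7.504 kb between neighbouring summits. Its lower folds ran from 2.63 to 9.64, with a median of 5.09, so none exceeded 10. Over chromosomes 1 to 10 the share above 10 was 4.73%. The densest 1 Mb of each of the 8 compared chromosomes held 0 or 1 such region. Other chromosomes had up to 35 regions in their densest 1 Mb, on chromosome 2.

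Neighbouring regions of chromosome 7 lay a median of 58.7 kb apart (50.8 to 69.2), measured between list 1 summits over 1195 distances. Chromosome 2 was next with 61.3 kb (52.7 to 70.5), and the 2 intervals overlapped. Medians of the other 7 ran from 76.0 kb on chromosome 1 to 107.3 kb on chromosome 4. The shorter median did not come with more very close neighbours: 90 distances were under 2 kb (7.53%), against 7.75% on the 8 others together. Distances under 10 kb made up 25.4% (304), where the background over chromosomes 1 to 10 was 23.6% and chromosome 2 had 27.7%. Distances of 10 to 50 kb made up 21.2%, above the 15.1% to 19.1% of each of the others, and those of 500 to 1000 kb made up 3.51%, below their 5.75% to 9.04%.

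**Figure D3:**
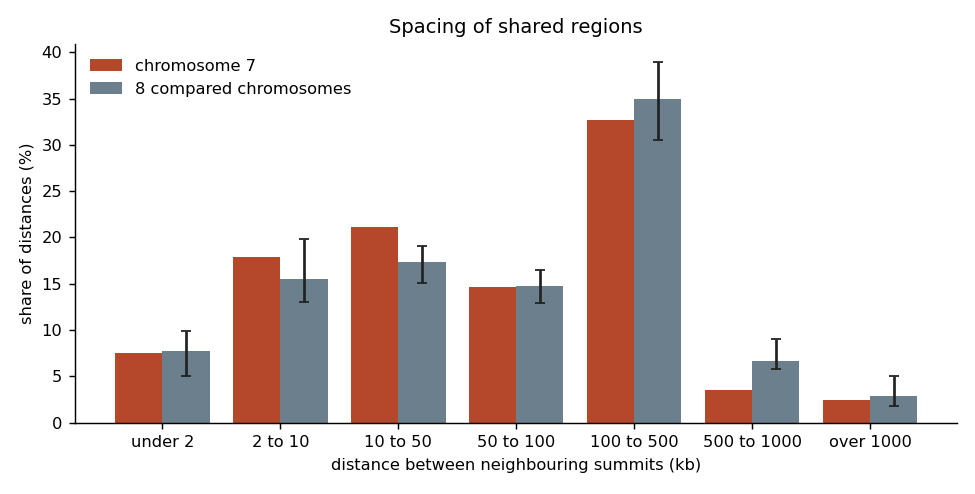
Share of distances between neighbouring summits in 7 classes of length, on chromosome 7 and on the 8 compared chromosomes together; the lines give the lowest and highest of the 8. Chromosome 7 exceeded that range from 10 to 50 kb, at 21.2%, and fell below it from 500 to 1000 kb, at 3.51%.

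Long gaps were few but took up much of the chromosome. The 72 distances over 500 kb (6.03%, background 8.97%) added up to 75.9 Mb, or 41.6% of its length, and 38 of them began between 40 and 100 Mb. The longest gap, 3611671 bp, separated the summits of the regions at 59342188 to 59342663 and 62953814 to 62954456. The second, 3498718 bp, lay between 67850025 to 67850571 and 71348697 to 71349235. The next, of 2639176, 2459442 and 2392154 bp, began at 62953814, 71348697 and 81508826. The 11 regions from 60 to 80 Mb had a median lower fold of 4.67, against 4.66 in the first 60 Mb. On chromosome 6 the longest gap reached 9266 kb.

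The closest neighbours were separated by little more than a peak. The summits at 174084366 to 174084783 and 174085024 to 174085661 were 705 bp apart, with 240 bp between the edges of the regions. In lists 1 and 2, the right-hand member had folds of 7.64 and 15.2, and the left-hand one 6.42 and 4.28. The next pairs, with left-hand regions starting at 164520189, 3747933, 182155236 and 166927425, had summits 813, 848, 866 and 880 bp apart. A neighbour within 10 kb was present for 512 of the 1196 regions (42.8%), against 39.6% on the 8 others together. Chromosomes 2 and 5 had larger shares, 45.7% and 43.2%, and the rest ran from 33.9% on chromosome 4 to 41.1% on chromosome 1. By bin of chromosome 7 this share was 59.7% from 130 to 140 Mb and 57.1% from 160 to 170 Mb, but 7.69% from 30 to 40 Mb.

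Regions of chromosome 7 had a median width of 745 bp (727 to 760; quartiles 565 and 1002), the same as on chromosome 2 (745 bp, 724 to 757). The other 7 had medians of 675 bp on chromosome 9 to 712 bp on chromosome 1. Broad regions of 2 kb or more numbered 37 (3.09%, 2.19 to 4.24), where the background over chromosomes 1 to 10 was 1.70%. Chromosome 2 had 2.34% (1.62 to 3.27), with an interval that overlapped, and chromosome 4 had 0.70% (0.282 to 1.44). On chromosome 7 only 1 of the 37 lay in the first 60 Mb, among 234 regions, and 25 lay beyond 130 Mb, among 658. By bin the median width was 818 bp from 120 to 130 Mb and 806.5 bp from 110 to 120 Mb, and it was lowest, 644.5 bp, from 40 to 50 Mb among bins with 19 or more regions.

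Wider regions had more fragments, while the fold did not rise steadily with width. The 176 regions under 500 bp had a median of 38 treatment fragments in list 1 and 31 in list 2, and a median lower fold of 4.41. The 37 of 2 kb or more had 130 and 110 fragments, and a median lower fold of 5.44. In the classes between, the median lower fold was 4.73 from 500 to 750 bp, 5.03 from 750 to 1000 bp, 5.19 from 1000 to 1500 bp and 4.66 from 1500 to 2000 bp. Over the 1196 regions, Spearman's rho of width was 0.445 with treatment fragments and 0.12 with the lower fold. These are descriptions across regions that share their libraries. A region also gets wider when it joins several peaks.

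The widest region, 124927384 to 124932263, spanned 4880 bp and joined 2 peaks of list 1 and 1 of list 2. Its strongest peaks had folds of 8.88 and 3.0, and their summits were 2809 bp apart. The 3919 bp region at 127686956 to 127690874 consisted of 1 peak in each list, with summits 15 bp apart and folds of 6.23 and 6.96. It had 216 treatment fragments in list 1 (interval 188 to 247) and 205 in list 2 (178 to 235). The next were 130688000 to 130691835 with 3836 bp and folds of 7.02 and 9.45, 129181643 to 129184911 with 3269 bp and folds of 10.9 and 6.87, and 111020528 to 111023750 with 3223 bp and folds of 12.9 and 17.8. All 5 lay between 110 and 140 Mb.

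The median folds of chromosome 7 were higher than those of the chromosomes compared, while its treatment fragments were not. Its median fold was 5.90 in list 1 and 5.34 in list 2, against at most 5.56 (chromosome 1) and 4.98 (chromosome 9). Its intervals overlapped those of chromosomes 1, 9 and 10 in list 1 and of chromosome 10 in list 2. The median lower fold was 4.83 (4.69 to 5.01), and the others ran from 4.29 on chromosome 6 to 4.55 on chromosome 1. The interval of chromosome 9 (4.369 to 4.699) just overlapped it. Chromosome 3, left out of the comparison, had a median lower fold of 5.16. Treatment fragments had the lowest medians of the 9 chromosomes, 60 in list 1 (57 to 63) and 50 in list 2 (47 to 53), where the others had 62 to 67 and 51 to 57. Only the intervals of chromosomes 1 (64 to 69 and 54 to 58) and 8 (64 to 72 and 54 to 60) lay wholly above these. The control background had a median of 5.60 in list 1, against 6.0 to 7.0, and of 9.0 in list 2, level with chromosomes 9 and 10 and below the 10.0 to 11.001 of the other 6. On chromosome 3 it was lower still, 5.0 in list 1 and 7.0 in list 2. Without the caller's pseudocount, the depth-adjusted ratio of treatment to control had a median of 5.42, against 4.71 to 5.03.

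Control and fold were inversely related across these regions. A lower control raises the fold by construction, and rho between the lower fold and the list 2 control was -0.56 over the 1196 regions, against -0.05 with list 2 treatment fragments. Regions with a list 2 control under 4 fragments made up 6.86% (under 2) and 14.6% (2 to 4) of chromosome 7, against 4.36% and 10.9% of the 8 others together. Within these classes the median list 2 fold was nearly the same, 9.55 against 9.61 and 7.40 against 7.42. It was 6.07 against 5.90 from 4 to 8 fragments, the class with the most regions of chromosome 7 (296). It was lower on chromosome 7 between 8 and 12 control fragments, at 4.60 against 4.86, and higher from 12 to 20, at 4.62 against 4.26, and above 20, at 3.79 against 3.46. The control stood at the genome-wide background, the floor that the caller applies where no nearby window holds more control fragments, in 39 regions in list 1 (3.26%, background 2.61%) and in 26 in list 2 (2.17%, background 1.68%). The 8 chromosomes compared had 1.04% to 2.86% and 0.426% to 1.11%. Chromosome 3, which is part of this background, had 8.37% and 7.27%, so a control at that level was more frequent there than on chromosome 7. Why the control was lower was not tested.

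A lower fold above 10 was reached by 77 regions of chromosome 7 (6.44%, 5.11 to 7.98), where the background over chromosomes 1 to 10 was 4.73%. Shares on the 8 others ran from 2.22% on chromosome 6 to 4.81% on chromosome 10, and chromosome 3, which is in the background, had 10.06%. These 77 had median treatment fragments of 81 in list 1 and 68 in list 2, against 59 and 48 in the other 1119. Their median control was 2.1 and 3.0, against 6.0 and 9.0. Of the 77, 6 stood at the genome-wide background in list 1, 2 in list 2 and 1 in both. Over chromosomes 1 to 10 these shares were 2.61%, 1.68% and 0.893%. The 77 were also wider, with a median of 936 bp against 733 bp. The members on either side of this limit were 108626383 to 108628216, with folds of 12.4 and 10.04, and 127576511 to 127577233, with 9.998 and 16.2.

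**Figure D4:**
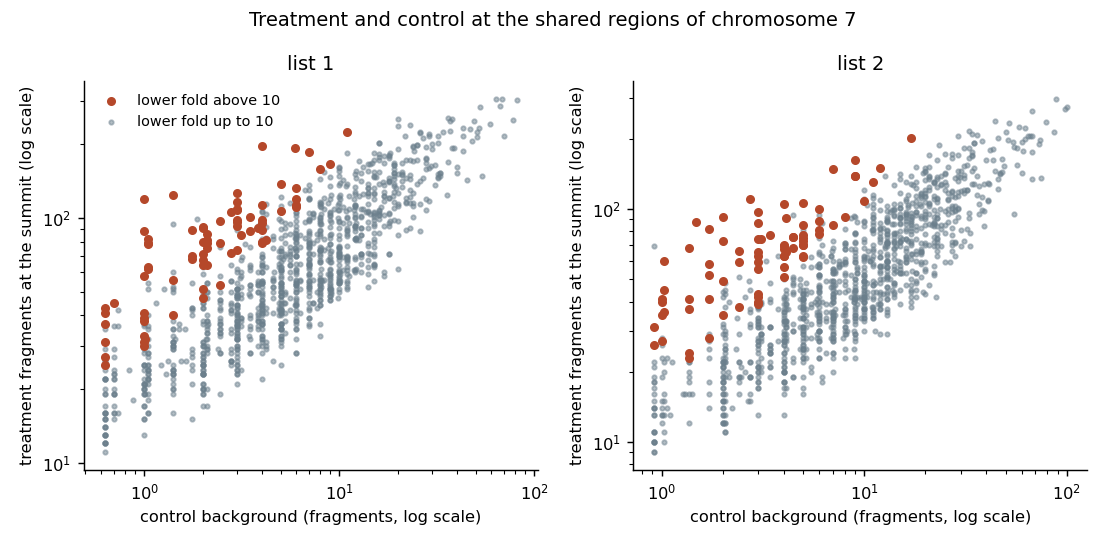
Treatment fragments at the summit against control background for the 1196 shared regions of chromosome 7, in list 1 and list 2, on log axes; the 77 regions with a lower fold above 10 are drawn in red. The red points lie at the upper left edge of the cloud, with a control of at most 11 fragments in list 1 and 17 in list 2.

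Strong regions were concentrated in the stretch from 80 to 130 Mb. It held 43 of the 77 (55.8%) but 293 of all 1196, and 22.3% of the regions with a lower fold up to 10. The share above 10 was 14.7% there, 5.13% in the first 60 Mb and 3.34% beyond 130 Mb. From 120 to 130 Mb the median lower fold was 6.23 (5.81 to 6.67), and 19 of 111 regions exceeded 10. Among the 132 full bins of the 8 compared chromosomes with 20 or more regions, the median lower fold ran from 3.59 to 5.53. Bins of chromosome 3, whose median lower fold was above that of chromosome 7, were not examined. Treatment fragments from 120 to 130 Mb had medians of 61 in list 1 and 48 in list 2, close to the 60 and 50 of the whole chromosome, and the control had 3.5 and 5.0. The control was at the genome-wide background in 10 of these 111 regions in list 1 (9.01%, against 2.61% over chromosomes 1 to 10) and in 8 in list 2 (7.21%, against 1.68%).

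The adjoining bin from 130 to 140 Mb had more regions, 149, with a median lower fold of 4.92 and 7 regions above 10. The densest bin, 160 to 170 Mb, had a median of 4.70 and 8 of 177 above 10. In both bins the share above 10 was close to the background of 4.73% over chromosomes 1 to 10. Number and strength thus did not peak in the same place. Without the regions from 120 to 130 Mb the median lower fold of the chromosome was 4.72, and without those from 80 to 130 Mb it was 4.69. Both medians were above the 4.55 of chromosome 1, but their intervals (4.59 to 4.88 and 4.55 to 4.84) overlapped that of chromosome 1 (4.44 to 4.64). Of the 903 regions outside 80 to 130 Mb, however, 34 had a lower fold above 10 (3.77%), close to the 3.67% of the 8 others together and below the background of 4.73% and the 4.37% of chromosome 1. This stretch was singled out after its values had been seen.

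**Figure D5:**
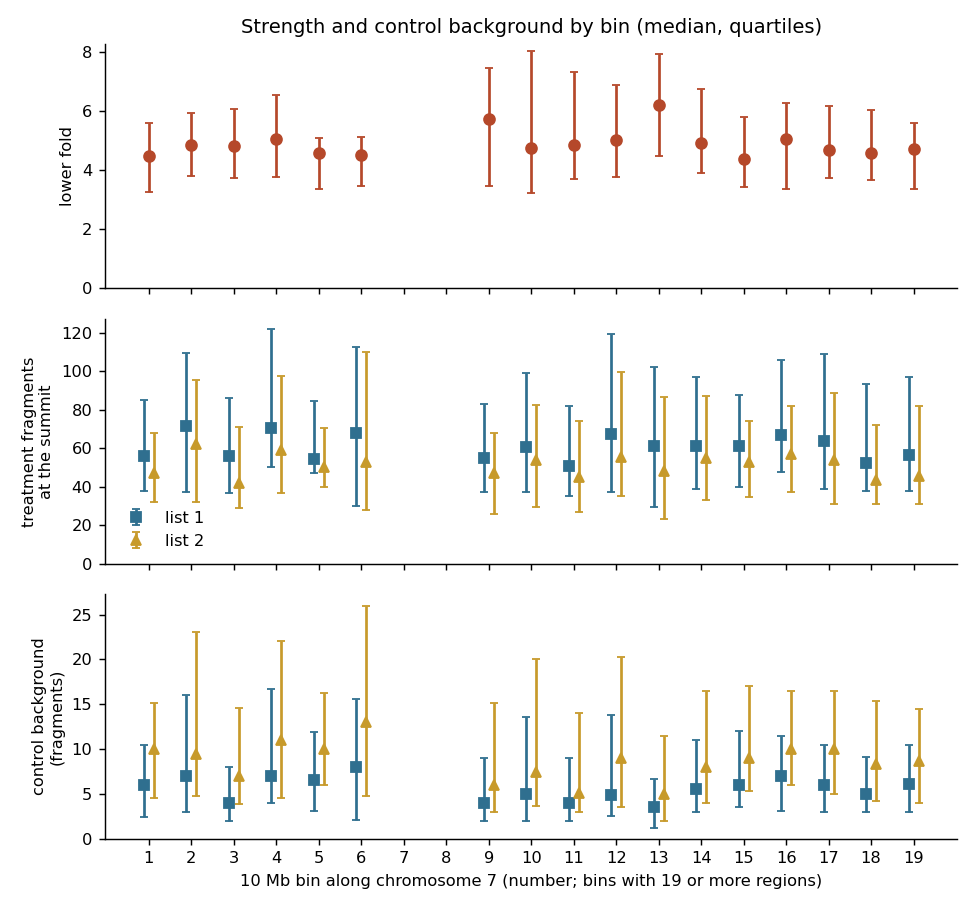
Median lower fold, treatment fragments at the summit and control background by 10 Mb bin of chromosome 7, with quartiles as lines; bins 7 and 8 are not drawn because they held 4 and 7 regions. Bin 13 (120 to 130 Mb) had the highest median lower fold, 6.23, and the lowest control medians, 3.5 in list 1 and 5.0 in list 2, while its treatment medians of 61 and 48 were within the range of the other bins.

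Of the 100 strongest shared regions of chromosomes 1 to 10 by lower fold, 23 lay on chromosome 7, which held 10.6% of all shared regions (1196 of 11310). Chromosome 1, with 1786 of all regions, had the next most among the 8 compared, 8. Chromosome 3, which was not among those compared, had 46, with 1362 of all regions. On chromosome 7 the bin from 120 to 130 Mb held 10 of the 23, and 15 lay between 100 and 130 Mb. Their lower folds ran from 15.6 to 30.8 and their widths from 657 to 2104 bp. In list 1, 2 of the 23 stood at the genome-wide background, against 2.61% of all regions of chromosomes 1 to 10. None did so in list 2 (1.68% of all) or in both lists (0.893% of all). The median control of the 23 was nevertheless low, 2.0 in each list, against 5.60 and 9.0 over chromosome 7. Their median treatment fragments were 88 in list 1 and 68 in list 2, against 60 and 50. The count of 23 depends on how strength is measured. With list 2 folds alone it was 16, with list 1 folds alone 15, and by the ratio without the pseudocount 15. By treatment fragments it was 9, fewer than the 16 of chromosome 1. With the regions from 120 to 130 Mb left out of the ranking it was 14.

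The strongest site of chromosome 7 was 112430782 to 112432398, the twelfth by lower fold of all 11310. It had 124 treatment fragments in list 1 (interval 103 to 148) and 82 in list 2 (65.2 to 102), over a control of 1.40 and 1.72, which gave folds of 34.0 and 30.8. The next, 125135481 to 125137373, had folds of 39.5 and 29.95 from 120 and 110 fragments, over a control of 1.00 and 2.74. The region at 167718753 to 167719866 had 29.1 and 30.3 from 88 and 60 fragments. Its control background was 1.00 and 1.03, not far above the genome-wide 0.626 and 0.918, so its fold rests on a low control. This region was the only one of the 10 strongest beyond 130 Mb.

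The other 7 sites complete the 10 strongest. Those at 121837869 to 121838674 and 127961438 to 127962296 had folds of 20.7 and 21.4, and of 20.5 and 22.8. The control at 127961438 was 1.05 and 1.03. The site at 25276776 to 25278047 had folds of 20.1 and 24.9, over a control of 1.05 and 2.00. Its neighbour at 25270395 to 25271638 had 25.2 and 19.7, over 1.05 and 1.72. These 2 neighbours are also the members just inside and just outside a lower fold of 20. Above that limit lay 6 regions of chromosome 7 (0.502%, 0.184 to 1.09), where the background over chromosomes 1 to 10 was 0.274%. The 8 compared chromosomes together had 5 such regions (0.0571%), and chromosome 3 had 20 of its 1362 (1.47%), most of that background. The last 3 were 129352423 to 129353886 with 19.1 and 36.3, 125131474 to 125133035 with 25.8 and 18.9, and 103322662 to 103323757 with 18.0 and 24.8. Lists 1 and 2 differed by up to 1.90 times within this set. Of all 1196 regions, 72.7% had list 1 and list 2 folds that differed by at most 1.5 times.

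Several of the strongest sites were neighbours of each other. Of the 23, 7 had another of the 23 within 10 kb. The summits of the sites at 25270395 and 25276776 were 6.40 kb apart, and those at 125131474 and 125135481 were 4.36 kb apart. At 127956796 to 127966802 lay 3 strong regions at even distances, 4557 and 4559 bp between summits, with widths of 919, 859 and 860 bp and lower folds of 15.6, 20.5 and 17.8. Their controls were low, 1.40, 1.05 and 0.626 in list 1, the last at the genome-wide background, and 1.37, 1.03 and 1.00 in list 2. Treatment fragments were 56, 63 and 43 in list 1 and 68, 45 and 40 in list 2. This run was noticed after its values had been seen. Of the 150 runs of 3 neighbours on chromosome 7 with both distances under 20 kb, 2 had distances within 1% of each other, and the second was at 166928295 to 166935467 with 3402 and 3379 bp. Each of the 8 other chromosomes had 0 to 3 such runs.

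Sites with the most treatment fragments were not those with the highest fold. The 5 with the most, after adjustment for depth, were 165250259 to 165251269, 129796708 to 129798510, 92056282 to 92056940, 146609968 to 146611511 and 164821498 to 164822365. They had 256 to 307 fragments in list 1 and 238 to 297 in list 2, over controls of 36.0 to 81.9 and 44.0 to 100.0. Their folds were therefore low, from 2.395 to 4.52 in list 1 and from 2.74 to 5.38 in list 2. At the first of them, 307 fragments in list 1 (interval 274 to 343) stood over a control of 64.0, and 297 in list 2 (264 to 333) over 88.0. Genes and sequences at these positions were not analysed here.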

How the data were processed

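Per the labels, nuclei from about 100 mg of endosperm powder were incubated with the ZmICE1a antibody (20 μg/mL) and tagmented at 37 °C. Per the submitters' processing notes, MACS2 2.1.0, SAMtools 1.12, Bowtie2 2.4.1 and fastp 0.23.1 were used, and neither their order nor their parameters are given. The authors deposited 2 peak lists, of 14475 and 17518 peaks, with a fold enrichment (a linear ratio), a −log10 p and a −log10 q at the summit, and a score. Multiplied by 10, the −log10 q matched the deposited score to within 1 in every peak. Contig names are those of the B73 version 4 assembly. No genome or annotation of that build was used here, so no gene is named and no sequence is printed.

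Whole treatment fragments (up to 1000) and a control background were solved for so that both the listed fold and p came out, with p matched to 0.001 on the −log10 scale. A solution was found for 100% of peaks, with the treatment scaled by 0.650 in list 1 and the control by 0.986 in list 2. In list 1, 0.249% of peaks had a second solution, and the closest was kept. A control within 1% of 0.626 fragments (list 1) or 0.918 (list 2) was counted as at the genome-wide background. The depth adjustment between lists (1.04 times) assumes that both used the same genome size. Chromosome length was taken as the end of the last peak, and a region with several peaks of a list took the fold of the strongest. Regions were put into bins by their list 1 summit. The procedures were tested on simulated data.

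The chromosome, the values described and the alternatives were chosen with earlier results of these lists known. Regions named are the 10 strongest by lower fold, the 5 widest, the 5 with the most fragments, the 5 longest gaps, the 5 closest pairs, and those next to a fold of 10 or 20, and others are said to have been noticed afterwards. No test was run, since regions are not replicates and each region was selected on both lists. The labels call the libraries biological replicates and do not say whether they came from separate plants. Python 3.11.15, pandas 2.3.3, numpy 2.4.6 and SciPy 1.17.1 were used.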

Additional observations from a re-analysis of the deposited data

How the results depend on the processing

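No paired analysis was possible because the peak lists hold no values per library and no test was run. Medians and shares were called moved outside their interval, counts, densities and ratios beyond 1.5 times, and the densest or emptiest bin where it no longer overlapped. By these rules 25 of 68 alternatives moved a value and 43 did not. Chromosome 7 ranked first by density in all 5 other definitions of a site. A reciprocal overlap of 50% gave a median width of 723 bp, summits within 100 bp a median spacing of 79.2 kb, and a −log10 q of at least 5 a median lower fold of 5.04. Under those 2 overlap rules 72.7% and 62.2% of list 1 peaks had a partner, and 61.0% and 52.1% of list 2 peaks. With 1 list alone there were 1515 to 1807 sites, 8.32 to 9.92 per Mb, with a median width of 555 to 569 bp, a median fold of 5.11 to 5.75, and a median spacing of 34.4 to 47.0 kb. The control was then at the genome-wide background in 4.95% of list 1 and 3.65% of list 2 peaks. By width, chromosome 7 then stood second to chromosome 2, as it did with a −log10 q of at least 5 and without the 120 to 130 Mb bin (738 bp). The median strength was 5.42 without the pseudocount and the lower fold 4.69 without 80 to 130 Mb. Leaving out either stretch and the median without the pseudocount were settings added after seeing the data. The 23 strongest of 100 became 15 without the pseudocount, 9 by treatment fragments and 14 without the 120 to 130 Mb bin. With the shared regions, still found in both lists, ranked by the folds of 1 list, the count was 15 to 16. The ratio of the densest to the emptiest bin was 93.0 in 5 Mb and 27.5 in 20 Mb bins, and 35.3 to 41.4 with 1 list. The length of the chromosome in the assembly was not used, so that alternative was not run. Total depth is unknown, so what it limits could not be computed.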
